A study of Mus musculus with 18 samples.

Results

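Of the 19153 genes listed for the 18 RNA-seq libraries, 84 are protein-coding genes named for a protein of the cytoplasmic ribosome. They were chosen by symbol alone, as Rpl or Rps followed by a digit, or Rplp0, Rplp1, Rplp2 and Rpsa, with pseudogenes and the Rps6k kinases left out. The 84 genes hold 31 proteins of the small (40S) subunit and 46 of the large (60S) subunit, of which 3 form the stalk (Rplp0, Rplp1 and Rplp2). A further 6 encode paralogs (Rpl7l1, Rpl22l1, Rpl36al, Rpl39l, Rps27l and Rps27rt), and Rps19bp1 matches the pattern by its symbol only, since it encodes a binding partner of Rps19 and not a ribosomal protein. All 84 passed the filter on low counts that left 17766 genes for testing.

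A cytoplasmic ribosome joins a small subunit, which reads the messenger RNA, to a large subunit, which forms the peptide bond. The stalk of the large subunit recruits the translation factors that bind GTP. Ribosomal protein mRNAs are among the most abundant in growing cells, and most of them begin with a C followed by a run of pyrimidines (the 5' terminal oligopyrimidine or TOP motif), through which mTOR signalling and Larp1 control their translation and stability. Cells that leave the cycle to form muscle are known to change their rate of ribosome production.

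The libraries came from immortalized mouse myoblasts, muscle precursor cells that all lacked p53. Wildtype (WT) cells had received an empty Cas9 vector, and LAP2alpha knockout (KO) cells were edited with CRISPR-Cas9 and sorted as a bulk population by EGFP, so neither is a single clone by its description. LAP2alpha is a nucleoplasmic protein that binds lamin A/C. Each genotype was sampled while proliferating in 20% serum (Prol), at confluence on day 0 of differentiation (D0), and on day 2 after 48 h in 5% serum (D2). There were 3 replicate libraries for each of the 6 groups. Nothing in the descriptions says that the replicates were separate cultures, so p-values measure the spread between these libraries, which may be technical.

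Library totals lay between 26437823 and 41619016 expected counts of poly(A) RNA. Tmpo, the targeted gene, was counted over all of its isoforms and not over LAP2alpha alone, and it was lower in KO in 9 of 9 same-numbered pairs of libraries. The gap was very small in replicate 3 at D2, where WT and KO both rounded to 157 CPM. The summed level of 6 myotube markers went from between 2.29 and 28.4 counts scaled to library size (CPM) before D2 to between 2460 and 5050 CPM in WT D2 and between 1470 and 1870 CPM in KO D2. The myoblast markers were low before D2, at a sum of 39.4 to 68.6 CPM over 5 of 6 listed genes. At D2 their sum was 521 to 880 CPM in WT and 377 to 416 CPM in KO. In every proliferating library Myod1 was at or under 5.88 CPM and Myf5 at or under 27.4 CPM. Myf5 did not go with the sum, since its lowest value, 11.6 CPM, was at D2. The sixth listed gene, Pax7, was not analysed here. Of the markers listed for other cell types, 2 of 5 for macrophages (3.62 to 8.0 CPM by their sum), 3 of 5 for endothelial cells (1.12 to 2.46), 1 of 4 for adipocytes (0.284 to 0.899) and 3 of 4 for Schwann cells (0.723 to 4.11) had values, all low, and the rest were not analysed here. The 6 fibroblast markers went from between 36.6 and 110 CPM before D2 to between 235 and 450 CPM at D2. Proliferation markers were at 1790 to 2660 CPM before D2 and at 332 to 577 CPM at D2. In these bulk samples fewer cells of a type and less RNA per cell cannot be told apart, and the part of these markers in the ribosomal protein results was not tested.

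The start of the transcript is shown first because the TOP motif at that place is the sequence feature for which these genes are known. RefSeq starts of the GRCm38.p6 build were matched by symbol for 64 of the 84 genes, with the first listed start of each gene. A C at the annotated start followed by at least 4 pyrimidines was found in 13 of the 64 genes (20.3%), against 2.49% of all 27025 starts and 2.42% of the starts of tested genes. The following windows hold 15 bases before the start and 15 from the start on, with the run of pyrimidines that begins with a C at the start in capitals.
Rplp2, chr7:141447636-141447665, plus strand: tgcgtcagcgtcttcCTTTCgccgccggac
Rps6, chr4:86857353-86857382, minus strand: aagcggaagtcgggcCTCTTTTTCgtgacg
Rpl15, chr14:18270972-18271001, minus strand: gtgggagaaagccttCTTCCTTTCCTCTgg
Rps21, chr2:180257364-180257393, plus strand: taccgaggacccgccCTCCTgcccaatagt
Rps2, chr17:24720048-24720077, plus strand: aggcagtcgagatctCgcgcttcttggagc
Rpl4, chr9:64173372-64173401, plus strand: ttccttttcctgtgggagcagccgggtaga

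Rplp2, Rps6, Rpl15 and Rps21 carry such a run at the annotated base, whereas in Rps2 and Rpl4, which were among the genes called lower at D2, the annotated base does not open one. An annotated start can lie some bases away from the one a cell uses, and in Rpl4 a pyrimidine run lies just upstream of the annotated base. Some short words were also searched on both strands of the 300-base promoter windows, with overlapping matches kept. CCGGAAG was in 39.1% of the 64 promoters, 9.12% of all promoters and 16.9% of those of tested genes, TCTCGCG in 20.3%, 2.72% and 5.24%, and AAGATGG in 14.1%, 6.48% and 7.08%. The E-box CACGTG was in 7.81% of the 64, between the shares of all promoters (7.24%) and of those of tested genes (9.84%).

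Ribosomal protein genes were among the highest of all genes in these cells. Their mean level over the 18 libraries ranged from 7.15 CPM (Rpl39l) to 3210 CPM (Rplp0), with a median of 896.4 CPM, and only 0.726% of the tested genes lay above that median. In all, 79 of the 84 genes were over 100 CPM, 67 over 500 CPM and 37 over 1000 CPM. The highest were Rplp0, the stalk base, followed by Rps2 at 2546 CPM, Rpl41 at 2296 CPM, Rpl13a at 2258 CPM and Rps14 at 2047 CPM. The median mean level was 1038 CPM for the 40S genes, 906.2 CPM for the 60S genes outside the stalk and 200.6 CPM for the 6 paralogs.

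Levels between genes compare only per length, and ribosomal protein genes are short, with a median coding sequence of 448.5 bases against 1380 bases over the tested genes. Only the length of the coding sequence was used here, although reads from whole transcripts, untranslated ends included, are counted. This measure therefore runs high where the coding sequence is very short. Per kilobase of coding sequence the highest level was that of Rpl41, whose coding sequence of 75 bases gave 30610 CPM per kilobase. Rps28 (5733 CPM per kilobase) and Rpl39 (5206 CPM per kilobase) came next. The lowest were Rpl39l (46.73 CPM per kilobase), Rps12 (46.74) and Rps19bp1 (79.84). Rpl39l encodes a paralog of Rpl39 best known from the testis, and the very low level of Rps12, a core 40S protein, stood beside a near-identical copy that was listed at 2054 CPM.

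Such copies touch most of these genes. The genome holds many retrocopies of ribosomal protein mRNAs, and reads of 50 bases cannot always be placed on the parent or the copy. Of all 50-base words in a member's coding sequence, a median of 91.4% also occurred in another annotated gene, and in 31 of the 84 genes every word did. In 64 genes at least 1 of 152 listed genes outside the family held 50% or more of the words. Only 14 genes shared under 50% of their words, among them Rps3 (8.09%), Rpl8 (8.73%), Rpl4 (20.28%) and, outside the core set, Rpl39l and Rps19bp1 (both 0%).

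For 8 genes the level of the parent lay below that of a copy. Rps12 was at a mean of 18.51 CPM and Rps12-ps3 at 2054 CPM, Rpl5 at 291.1 CPM and Gm15500 at 1894 CPM, and Rpl12 at 323.7 CPM and Gm10275 at 1802 CPM. Rps7 (60.2 CPM) stood below Gm6472 (1016 CPM), Rpl27 (262 CPM) below Rpl27-ps3 (818.2 CPM), and Rps13 (121.7 CPM) below Rps13-ps1 (654 CPM). Rpl35 and Rpl37 were the other two. Single values of these 8 genes are therefore uncertain, and each result below was also computed with the CPM of a gene's listed copies added to its own.

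**Figure D1:**
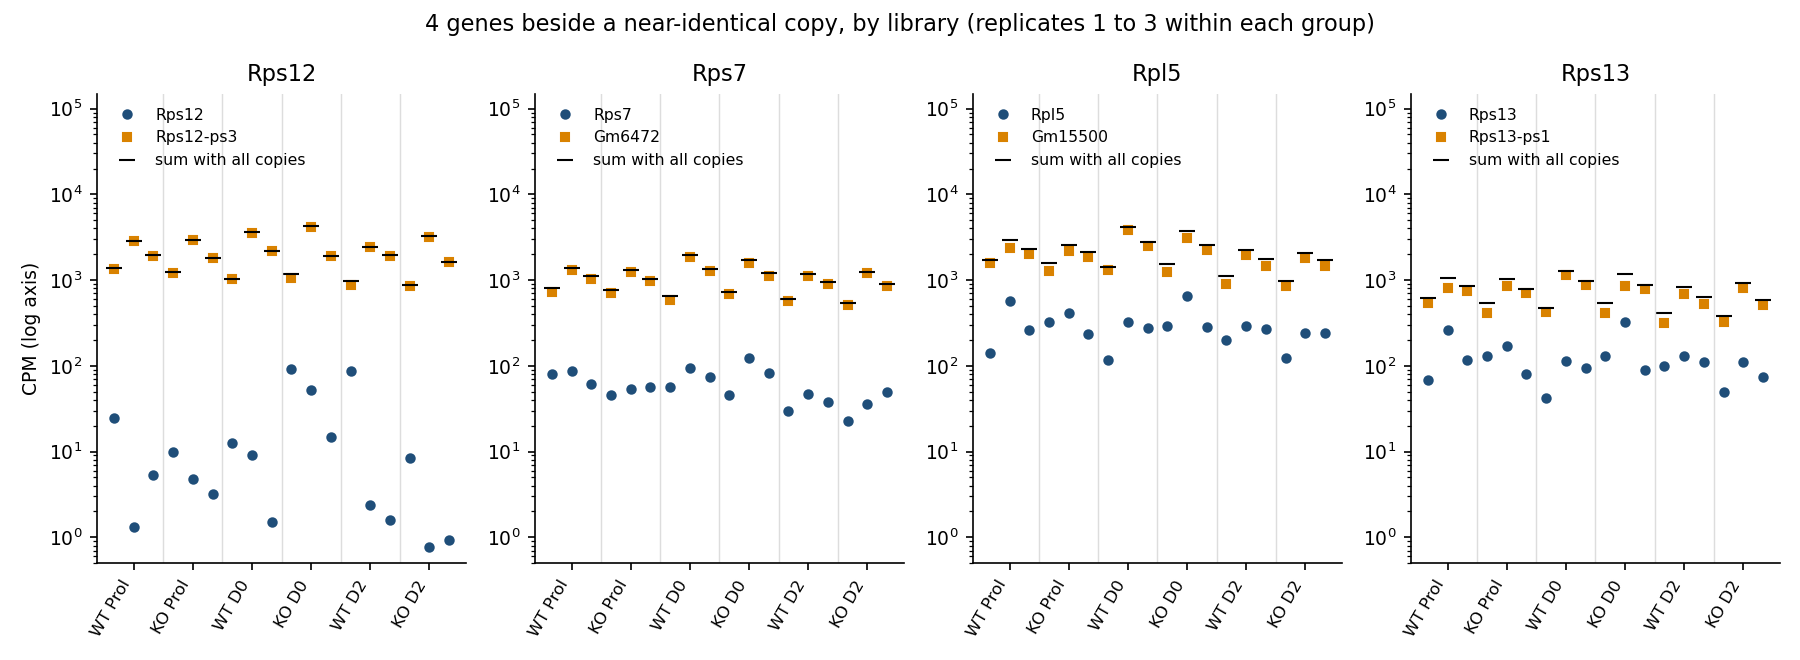
CPM on a log axis of 4 ribosomal protein genes (circles), of a near-identical copy of each (squares) and of the sum with all listed copies (dashes) in the 18 libraries, ordered by group and replicate. Rps12 ranges from 0.761 to 92.1 CPM while Rps12-ps3 stays between 863.5 and 4178 CPM.

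Before any comparison of states, the libraries differed by replicate number. The share of all CPM taken by the 84 genes was 7.35%, 10.9% and 8.96% in WT Prol replicates 1, 2 and 3, and 7.10%, 10.8% and 8.27% in KO Prol. It was 6.35%, 13.3% and 9.76% in WT D0 and 7.02%, 12.8% and 8.81% in KO D0. Replicate 1 was the lowest and replicate 2 the highest in all 6 groups. The pooled standard deviation between replicates was 2.58 percentage points, more than the gap between the highest and the lowest group mean (9.82% in WT D0 and 7.32% in KO D2).

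By gene, replicate 2 exceeded replicate 1 by a median of 0.71 on the log2 scale over the 84 genes (0.04 over all tested genes), and 77 of the 84 differences were above 0. The difference ranged from -2.53 in Rps12 to 2.91 in Rpl39l. Genes that went the other way included Rpl4 (-0.52), Rpl28 (-0.49) and Rps2 (-0.16). Among genes outside the family the same difference was smaller in longer genes, from a median of 0.77 in 188 genes of up to 300 bases to -0.69 in 1395 genes over 3000 bases. Across the 84 genes it was 0.96 in the 11 of up to 300 bases and 0.28 in the 3 between 900 and 1500 bases, so that at like length the family still lay above other genes. As a description over genes that share the same libraries, Spearman's rho with coding length was -0.23 over 83 members and -0.51 over 9105 other genes. The cause of the difference between replicates was not tested.

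**Figure D2:**
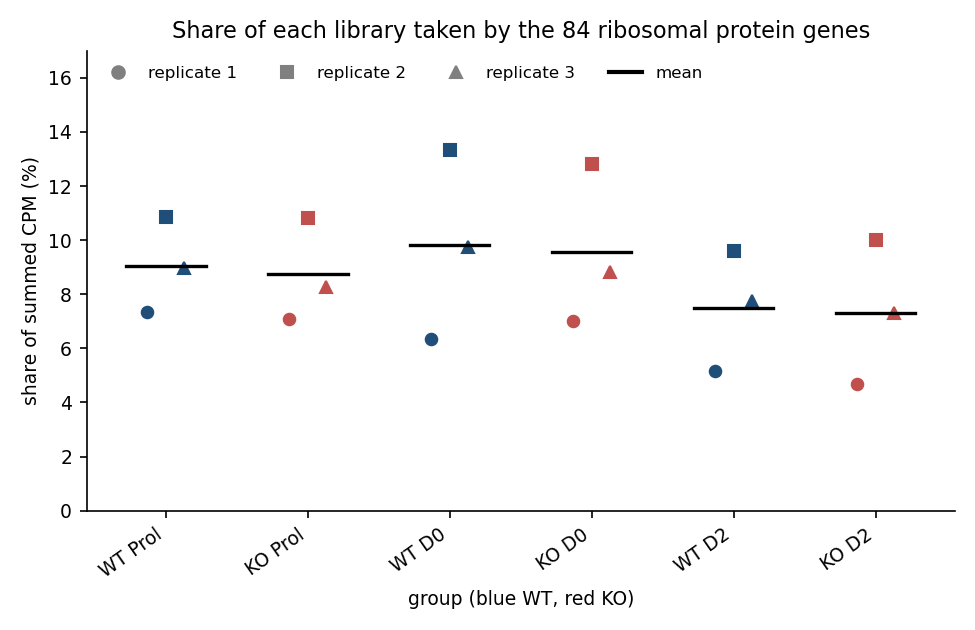
Share of the summed CPM, in percent, taken by the 84 ribosomal protein genes in each of the 18 libraries, by group, with 1 symbol per replicate and a bar at the mean. Replicate 1 is the lowest and replicate 2 the highest in each group, and the D2 means of 7.5% (WT) and 7.32% (KO) lie below the 4 others, which run from 8.73% to 9.82%.

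At D2 the values of most ribosomal protein mRNAs were lower than in proliferating cells, in both genotypes and in both subunits, although few single genes passed the test without a replicate block. The share was 9.06% ± 1.75 (SD, n = 3) in WT Prol and 7.5% ± 2.23 in WT D2, where the libraries were at 5.17%, 9.60% and 7.73%. In KO it went from 8.73% ± 1.91 to 7.32% ± 2.67, with D2 libraries at 4.66%, 10.01% and 7.29%. The groups overlapped in both genotypes. Within same-numbered KO libraries, whose deviations from the group means went together, the D2 share differed from Prol by -2.44, -0.82 and -0.97 percentage points. An exact permutation test of 3 libraries against 3 cannot go below p = 0.1, and none is given for the share.

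The median log2 fold change of the 84 genes between D2 and Prol was -0.47 in WT (a median fold of 0.72) and -0.46 in KO (0.729), against medians of -0.01 and 0.03 over all tested genes. In WT 81 of the 84 genes had a negative value and in KO 79. Without a block, however, few single genes passed the test, at 11 of 84 lower in WT and 13 of 84 lower in KO (limma, Benjamini-Hochberg adjusted p under 0.05). Lower calls made up 14% of all tested genes in WT and 15.1% in KO, so these shares of the family were near the background. No ribosomal protein gene was called higher. All 3 D2 libraries lay below all 3 Prol libraries in 30 of 84 genes in WT (35.7%, beside 20.4% of all tested genes) and in 21 in KO (25%, beside 22.6%). In KO, 74 of 84 genes (88.1%) were lower at D2 in all 3 same-numbered pairs, beside 32.8% of all tested genes, and with the replicate number as a block 54 were called lower, beside 23.8%.

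The counts without a block changed when single libraries were left out, which also alters the test for every other gene. The share of all tested genes called in those fits is not given here. In WT the count of 11 became 2 without WT Prol replicate 2, 4 without WT Prol replicate 3 and 2 without WT D2 replicate 3. In KO the count of 13 became 4 without KO Prol replicate 2, 7 without KO Prol replicate 3, 8 without KO D2 replicate 1 and 5 without KO D2 replicate 3. Without WT D0 replicate 1, which is in neither comparison, the counts rose to 14 in WT and 15 in KO. When libraries were scaled by their totals alone, the median of all tested genes moved up to 0.15 in WT and 0.16 in KO, and the family medians were -0.31 and -0.32, as far below the other genes as before.

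The median differences were alike by role. In WT the median log2 fold change was -0.44 over 31 genes of the 40S subunit, -0.50 over 43 of the 60S subunit, -0.53 over the 3 stalk genes and -0.57 over the 6 paralogs. In KO it was -0.41, -0.49, -0.50 and -0.55. The 10 core genes that share under 50% of their words with other genes gave -0.46 in WT and -0.41 in KO. With the copies added the medians over all 84 genes were -0.47 and -0.43, with 13 and 12 genes called, beside 14.1% and 15.2% of all tested genes.

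**Figure D3:**
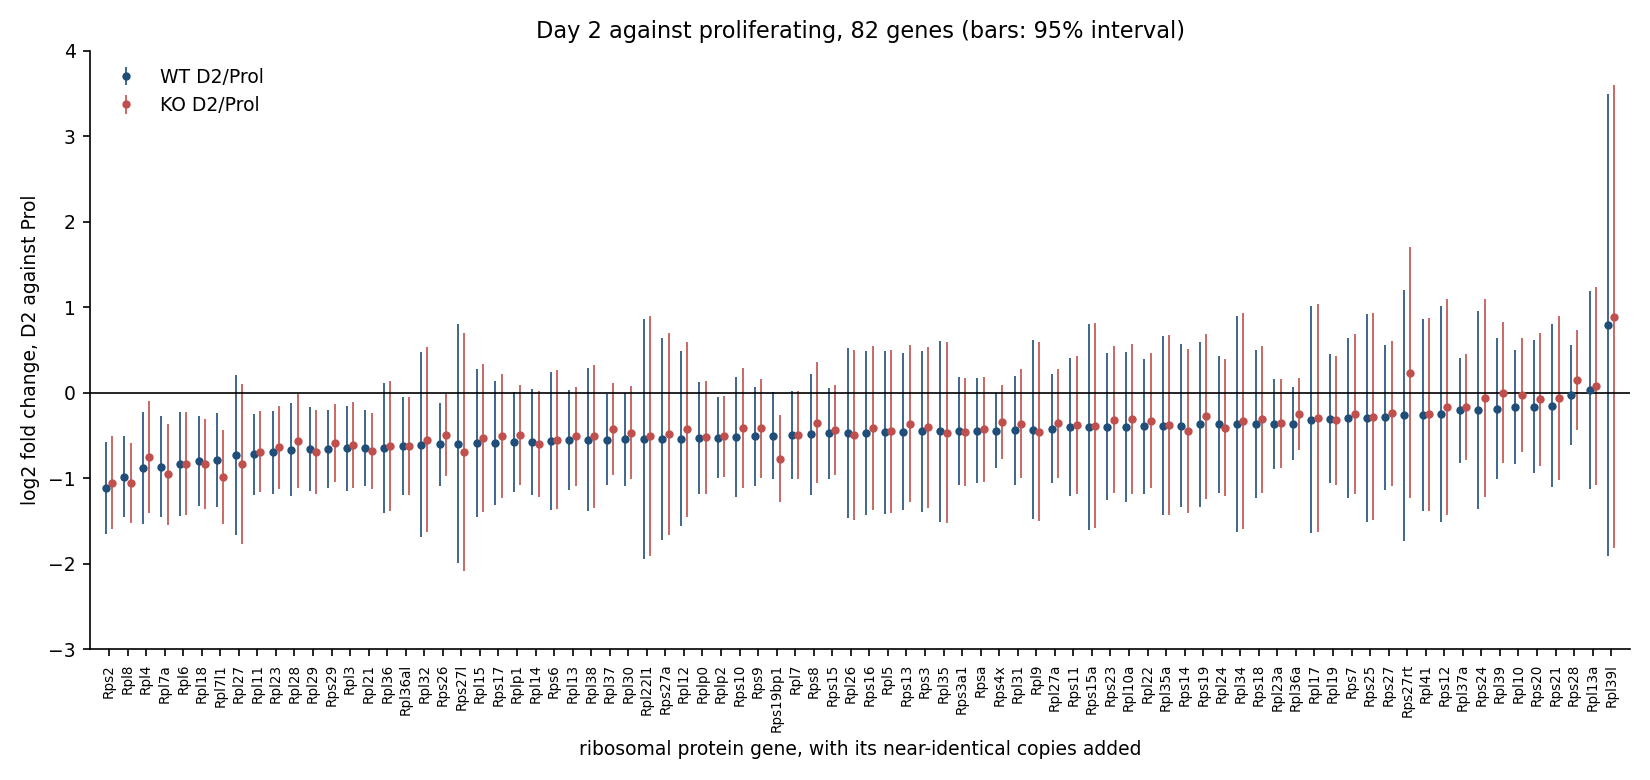
Log2 fold change of D2 against Prol for each of 82 genes with its listed copies added, in WT (blue) and KO (red), ordered by the WT value, with 95% intervals of the fit without a block. Most values lie between 0 and -1, with Rps2 and Rpl8 at the low end and Rpl39l alone far above 0 with an interval that spans 0.

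Among the 40S genes Rps2, a protein at the mRNA entry of the small subunit (chromosome 17, 24718116 to 24721929, GRCm38), had the lowest value in WT, and in both genotypes with the copies added. In KO as listed only Rps12, a gene with a higher copy, was lower, at -1.57 without a call. It was at 3291, 3160 and 3179 CPM in WT Prol and at 1767, 1448 and 1274 CPM in WT D2. In KO it was at 3242, 3150 and 2853 CPM in Prol and at 1612, 1555 and 1326 CPM in D2. No D2 library of either genotype reached the lowest Prol library. The log2 fold change was -1.11 ± 0.25 (SE, adjusted p = 0.00281) in WT and -1.04 ± 0.25 (adjusted p = 0.00418) in KO, and 84.1% of its words are shared with other genes, the highest copy being listed at 304.7 CPM.

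Other 40S genes were lower by less. Rps29, a small zinc-binding protein, was at 528.5, 648.2 and 668.5 CPM in WT Prol and at 408.9, 406.9 and 351.1 CPM in WT D2. Its log2 fold change was -0.66 (adjusted p = 0.0287) in WT and -0.59 (adjusted p = 0.046) in KO. Rps6, the target of the S6 kinases, was at 1261, 2176 and 1797 CPM in WT Prol and at 905.8, 1428 and 1160 CPM in WT D2, so that the WT groups overlapped. Its log2 fold change was -0.57 ± 0.39 in WT (adjusted p = 0.295) and -0.55 ± 0.39 in KO, where the adjusted p went from 0.312 to 0.00515 with the replicate block.

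Of 11 genes listed for a role outside the ribosome, 1 was called lower in WT (Rpl11) and 2 in KO (Rpl11 and Rpl23). That is 9.09% and 18.2%, near the 14% and 15.1% of all tested genes called lower. Their log2 fold changes ran from -0.79 (Rpl11) to 0.03 (Rpl13a) in WT and from -0.83 to 0.08 in KO, for the same genes, with medians of -0.43 and -0.45. Rpsa, also known as the laminin receptor, had a log2 fold change of -0.43 in WT (adjusted p = 0.286) and -0.43 in KO (0.274, or 0.0192 with the block). Rps3, which also takes part in DNA repair, had -0.45 in WT (adjusted p = 0.494) and -0.41 in KO (0.541, or 0.0433 with the block). Rps19, the gene most often affected in Diamond-Blackfan anaemia, had -0.37 (adjusted p = 0.594) and -0.28 (0.697, or 0.109 with the block).

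Among the 60S genes Rpl8, a protein near the peptidyl transferase centre, shares few words with any copy and fell by about as much as Rps2. It was at 1695, 1920 and 1905 CPM in WT Prol and at 1003, 1043 and 772.4 CPM in WT D2. In KO it was at 1706, 1903 and 1743 CPM in Prol and at 859, 911 and 799.4 CPM in D2. The Prol and D2 libraries did not overlap in either genotype, and the log2 fold change was -0.98 ± 0.22 (adjusted p = 0.00329) in WT and -1.06 ± 0.22 (adjusted p = 0.00176) in KO.

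Rpl4, which lines the exit tunnel and also shares few words, was at 1543, 1285 and 1499 CPM in WT Prol and at 1255, 629.7 and 599.6 CPM in WT D2. The first WT D2 library lay close to the WT Prol range and the others far below it. The log2 fold change was -0.88 ± 0.31 (adjusted p = 0.0407) in WT. In KO it was -0.75 ± 0.31, with an adjusted p of 0.076, or 0.00628 with the replicate block.

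The remaining 60S genes called in both genotypes were Rpl6, Rpl7a, Rpl11, Rpl18 and Rpl21. Their log2 fold changes ran from -0.70 (Rpl21) to -0.87 (Rpl7a) in WT and from -0.83 (Rpl6) to -0.96 (Rpl7a) in KO. Rpl11, which binds Mdm2 when ribosome assembly fails, was at 654.2, 916.1 and 777.5 CPM in WT Prol and at 488.3, 457.5 and 400.7 CPM in WT D2, with an adjusted p of 0.015. Its partner in that complex, Rpl5, was split between the gene and Gm15500 and had a log2 fold change of -0.14 in WT and -0.70 in KO as listed, and of -0.46 and -0.45 with the copies added, without a call in either form. Rpl23 (-0.71), Rpl27 (-1.57) and Rpl29 (-0.63) were called in KO and not in WT, where they were at -0.68, -0.94 and -0.53, and no such gap between the genotypes passed the test of the difference itself.

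The 3 stalk genes moved as a set by value and not by call. Rplp0 was at 2967, 4152 and 3498 CPM in WT Prol and at 2401, 2710 and 2197 CPM in WT D2, with all D2 libraries below all Prol libraries. Its log2 fold change was -0.53 ± 0.31 in WT (adjusted p = 0.227) and -0.52 ± 0.31 in KO (0.23, or 0.0213 with the block). Rplp1 and Rplp2 had -0.56 and -0.52 in WT, and -0.46 and -0.50 in KO. All 3 were called in KO with the block, and none without it.

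Of the 6 paralogs, Rpl7l1, which acts in the assembly of the large subunit and not in the mature ribosome, was called in both genotypes. It was at 247.9, 336.1 and 324.3 CPM in WT Prol and at 160.4, 203.3 and 162.1 CPM in WT D2, with a log2 fold change of -0.78 ± 0.26 (adjusted p = 0.0302). In KO its level went from 257.5, 309.2 and 314.3 CPM to 131.8, 149.8 and 162.8 CPM, a log2 fold change of -0.99 ± 0.26 (adjusted p = 0.00799). Rps27l, a p53 target in other cells, had -0.60 in WT and -0.69 in KO beside its parent Rps27 at -0.29 and -0.24. Rpl22l1 had -0.54 and -0.50 beside Rpl22 at -0.39 and -0.33, and Rpl36al had -0.62 and -0.60, all without a call. With the replicate block Rps27l, Rpl22l1 and Rpl36al were called in KO, at adjusted p of 0.00126, 0.00808 and 0.00254.

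Rpl39l was the paralog with the opposite sign. It was at 0.576, 5.67 and 5.66 CPM in WT Prol and at 0.61, 11.7 and 13.4 CPM in WT D2. In KO it was at 3.55, 11.2 and 3.85 CPM in Prol and at 4.24, 19.7 and 11.7 CPM in D2. Replicate 1 hardly moved and the groups overlapped in both genotypes. The log2 fold changes of 0.79 ± 1.28 and 0.89 ± 1.28 were within the spread (adjusted p = 0.695 and 0.65), beside a parent, Rpl39, at -0.19 and 0.00. Rps19bp1, the gene that matches by symbol only, was called in KO at -0.77 (adjusted p = 0.0221) and was at -0.50 in WT without a call. Rps27rt, whose words all lie in other genes and mostly in Rps27, had -0.26 in WT and 0.23 in KO.

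A few abundant genes were near 0 at D2. Rpl13a, which also takes part in silencing of inflammatory mRNAs, was at 1427, 2897 and 2046 CPM in WT Prol and at 1262, 3143 and 2291 CPM in WT D2. Rps28, a short 40S protein, was at 1025, 1358 and 1253 CPM in WT Prol and at 1087, 1345 and 1133 CPM in WT D2. In both genes the WT groups overlapped. The log2 fold changes were 0.03 (WT) and 0.08 (KO) for Rpl13a, and -0.03 and 0.15 for Rps28, with standard errors of 0.55 and 0.28. In all, 11 genes in WT and 12 in KO were within 0.25 of 0.

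**Figure D4:**
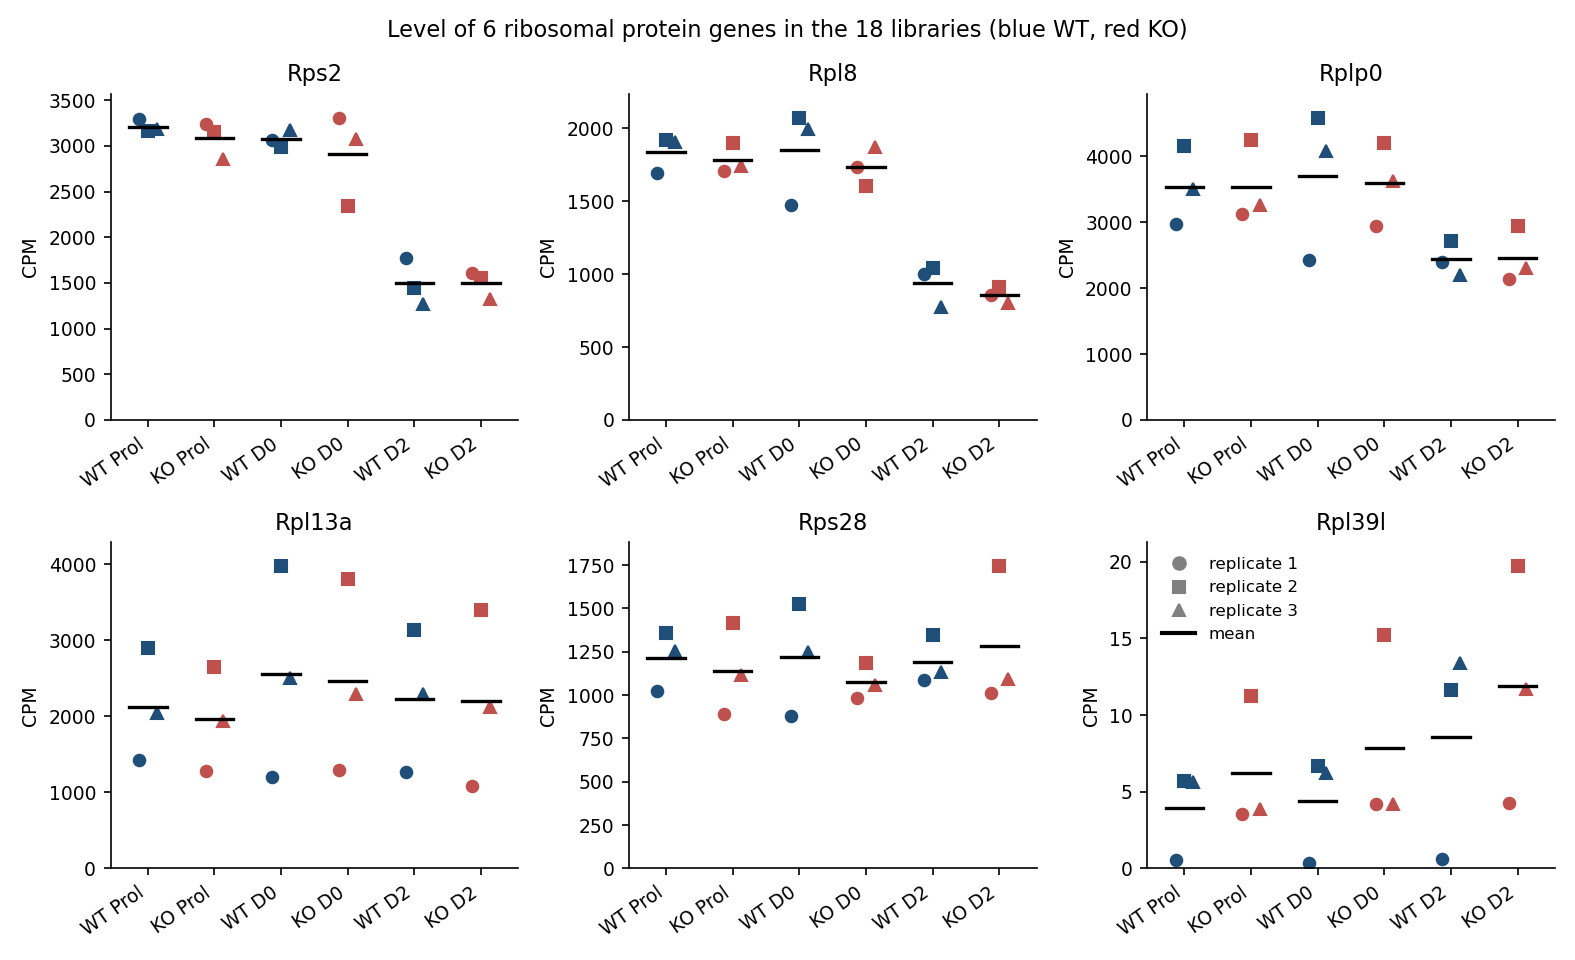
Level in CPM of 6 ribosomal protein genes in the 18 libraries, by group (WT blue, KO red), with 1 symbol per replicate and a bar at the mean, each axis from 0. For Rps2 and Rpl8 the D2 libraries lie below all Prol libraries, whereas for Rpl13a they overlap, and replicates differ more than states.

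The 2 genotypes share no library in the comparison of D2 with Prol, so that their values can be set side by side. They are not independent, since same-numbered WT and KO libraries shared deviations over the 84 genes. The correlations in replicates 1, 2 and 3 were 0.93, 0.82 and 0.61 at D2 and 0.61, 0.76 and -0.11 in Prol. The part of this in the likeness of the genotypes was not tested. Of the 11 genes called in WT, 9 were also called in KO, which is 81.8% of the WT genes and 69.2% of the 13 KO genes. The same shares over all called genes are not given here. As a description over 84 genes that share depth and read length, Pearson's r between the WT and KO log2 fold changes was 0.64 as listed and 0.85 without Rps12. With the copies added it was 0.96 over the 84 genes. The genes farthest from the diagonal as listed were among those with a higher copy. Rps12 was at 0.32 in WT and -1.57 in KO as listed and at -0.25 and -0.17 with its copies, and Rpl27 was at -0.94 and -1.57 as listed and at -0.73 and -0.83 with them. Rps7, which was called lower in WT at -1.02 (adjusted p = 0.0302), was at -0.30 with its copies (adjusted p = 0.666).

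**Figure D5:**
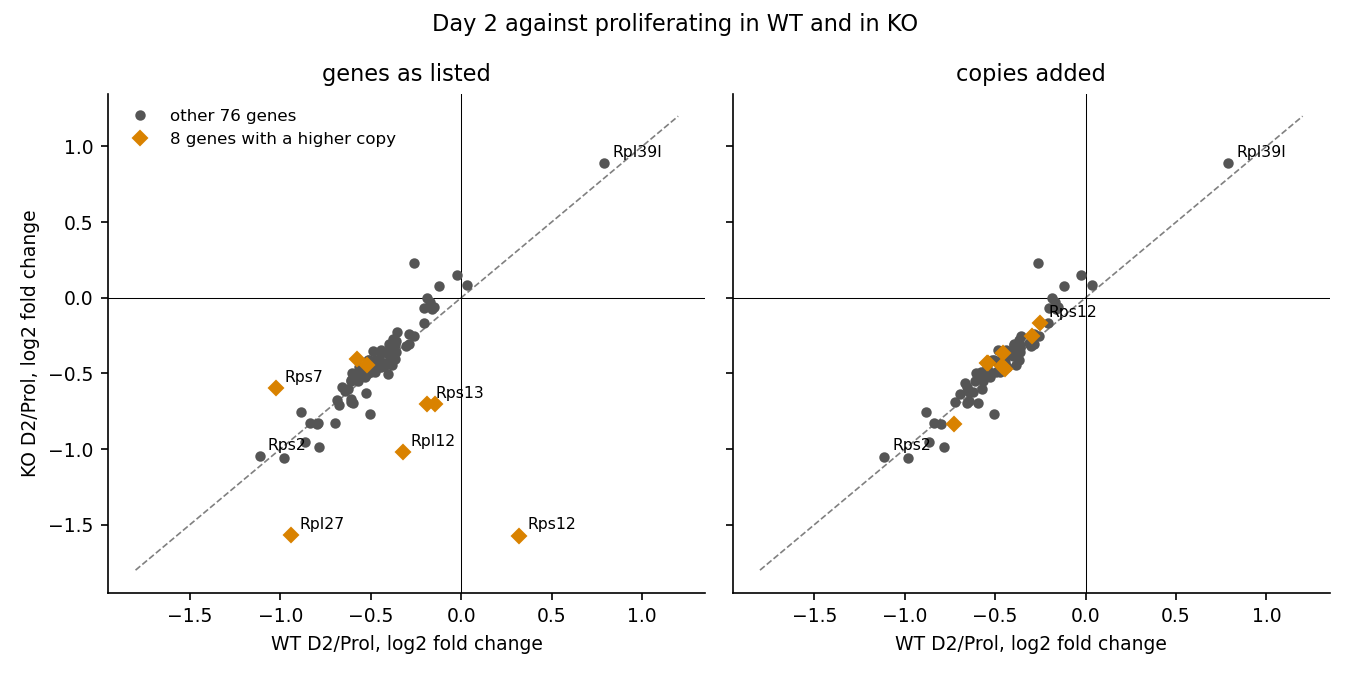
Log2 fold change of D2 against Prol in KO (vertical) against WT (horizontal) for the 84 genes, as listed (left) and with listed copies added (right), where orange diamonds mark the 8 genes with a higher copy. Rps12, Rpl27, Rps7, Rpl12 and Rps13 lie off the diagonal on the left and near it on the right.

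The comparison of D2 with D0, which covers the time in low serum, shares its D2 libraries with the comparison above. The median log2 fold change was -0.50 in WT and -0.52 in KO, against 0.00 and 0.06 over all tested genes. In WT 9 of 84 genes were called lower, beside 11.2% of all tested genes, and in KO 11, beside 12.9%. With the replicate block the count was 62 of 84 in KO, beside 22.3%. The WT count became 22 without WT D0 replicate 1 and 2 without WT D0 replicate 2, WT D0 replicate 3 or WT D2 replicate 3. The KO count became 5 without KO D0 replicate 3 or KO D2 replicate 1, and 6 without KO D2 replicate 3. For these fits too, the share of all tested genes called is not given here. Rps2 was at 3069, 2987 and 3176 CPM in WT D0 and at 3308, 2345 and 3079 CPM in KO D0, in each case above all D2 libraries of that genotype. Its log2 fold change from D0 to D2 was -1.05 (adjusted p = 0.00514) in WT and -0.95 (adjusted p = 0.00912) in KO.

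Rpl8 had -0.97 (adjusted p = 0.00423) and -1.02 (adjusted p = 0.00279) in the same comparison. The largest value, -4.53 for Rps12 in KO (adjusted p = 0.0249), came from 92.1, 52.8 and 14.8 CPM in D0 and 8.32, 0.761 and 0.925 CPM in D2. With its copies added, that gene had -0.35 (adjusted p = 0.704). Rpl27 in KO went from -1.93 (adjusted p = 0.00204) to -0.90 (adjusted p = 0.143) in the same way, and Rps7 from -1.17 (adjusted p = 0.0161) to -0.44 (adjusted p = 0.497).

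Between Prol and D0 no ribosomal protein gene was called in WT or KO by limma, with or without the block, beside 0.00563% and 0% of all tested genes called without it and 0.0169% in WT with it. Without the block 0 of the 84 genes had an unadjusted p under 0.05 in either genotype, and with it 2 in each. The share of all tested genes at that level is not given here. The median log2 fold change was 0.01 in WT and 0.08 in KO, and 79 and 75 of the 84 genes lay within 0.25 of 0. In WT the median difference was -0.28 in replicate 1, 0.21 in replicate 2 and 0.12 in replicate 3, so that the direction differed by replicate. The extremes as listed, Rps13 in WT (-0.74) and Rps12 in KO (2.96), belonged to genes with a higher copy, and Rps12 was at 0.18 with its copies.

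No difference between KO and WT passed the test in any state. No ribosomal protein gene was called in Prol, D0 or D2 by limma, with or without the replicate block, and of all tested genes 0.00563% were called in Prol and 0% in D0 and D2 without it. At an unadjusted p under 0.05 there were 0, 1 and 0 genes in Prol, D0 and D2 without the block, and 1, 5 and 2 with it. The share of all tested genes at that level is not given here, so these counts cannot be set against a background. The median log2 fold change of KO against WT was -0.06 in Prol, -0.03 in D0 and -0.04 in D2, against 0.00, 0.01 and -0.01 over all tested genes. In Prol 71 of the 84 genes were lower in KO by value, and 28 (33.3%) were lower in all 3 same-numbered pairs, beside 13.1% of all tested genes. By replicate the median was -0.05, 0.01 and -0.15, so that the third pair carried most of the difference.

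The intervals bound the size of what could have been missed. With the block and the copies added, the 95% interval of KO against WT lay within 1.5-fold in either direction for 82 of the 84 genes in Prol, 82 in D0 and 80 in D2, and it included 0 for all 84 in each state. With the block and as listed, 73, 75 and 71 intervals lay within 1.5-fold, and without the block and as listed only 13, 10 and 12. The copies were added after the data were seen. Over the 84 genes the third pair of KO and WT libraries in Prol correlated at -0.11, so that the narrower intervals rest on a pairing not seen there. Rplp0, the most abundant gene, had 0.00 in Prol (95% interval -0.37 to 0.37 with the block), -0.01 in D0 (-0.38 to 0.37) and 0.01 in D2 (-0.36 to 0.38).

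The extremes of KO against WT lay mostly in genes with few counts or a higher copy. An exception was the lowest value at D0, -0.27 in Rpl3, at a mean of 798.3 CPM with its highest copy at 562.3 CPM. Rps12 had log2 fold changes of 2.90 at D0 and -1.95 at D2 as listed, and was at 0.08 and 0.00 with its copies added. Rps13 at D0 went from 1.02 to -0.01 in the same way, and Rpl27 at D2 from -0.72 to -0.17. Rpl39l, which has no copy, was higher in KO by 1.02, 1.38 and 1.12 in Prol, D0 and D2 at standard errors of 1.28, and in D0 its levels were 0.368, 6.70 and 6.20 CPM in WT and 4.18, 15.2 and 4.18 CPM in KO. The change from Prol to D2 did not differ between the genotypes by the test of the difference for any of the 84 genes (adjusted p = 1 for every gene, and 0 genes at an unadjusted p under 0.05), with a median difference of 0.04.

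Genes for the assembly of ribosomes were lower at D2 by more than the ribosomal protein genes, by their medians. Among 45 ribosome biogenesis factors 34 were called lower at D2 than in Prol in WT (75.6%) and 38 in KO (84.4%), with medians of -1.12 and -1.35, and none was called higher. Lower calls made up 14% of all tested genes in WT and 15.1% in KO, the background for each list here. Fbl, the methyltransferase of box C/D snoRNPs, was at 240, 182 and 242 CPM in WT Prol and at 104, 59.9 and 53.1 CPM in WT D2. Npm1, a nucleolar chaperone, was at 2250, 2730 and 3000 CPM in WT Prol and at 942, 973 and 825 CPM in WT D2. In both genes every WT D2 library was below every WT Prol library. Of 15 genes for RNA polymerase I and its factors, 7 (46.7%) and 6 (40%) were called lower, with medians of -0.64 and -0.72.

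Translation factors and other TOP mRNAs were more mixed. Of 36 translation factors tested, 13 were called lower in WT (36.1%) and 16 in KO (44.4%), beside the 14% and 15.1% of all tested genes, with medians of -0.71 and -0.82. Eif5a, an elongation factor modified with hypusine, was at 1670, 1450 and 1770 CPM in WT Prol and at 688, 556 and 452 CPM in WT D2. Of 18 other mRNAs known to start with a TOP motif, 6 (33.3%) and 5 (27.8%) were called lower and none higher, with medians of -0.45 and -0.35, and these lists share genes such as Npm1 and Eef1a1. Of 78 mitochondrial ribosomal protein genes, 16 were called lower in WT (20.5%, not far from the 14% of all tested genes) and 27 in KO (34.6%), with medians of -0.37 and -0.46.

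Fau, which encodes a ribosomal protein as a fusion and falls outside the symbol rule, had a log2 fold change of -0.09 in WT and -0.16 in KO. Rack1, a 40S protein with a name of its own, had -0.45 and -0.44, near the family median. Neither was called without the block. Of 21 regulators of ribosomal protein and growth gene expression tested, 4 were called lower and 2 higher in WT, and 3 and 2 in KO. The lower calls are 19% and 14.3% of the list, beside 14% and 15.1% of all tested genes, and the higher calls 9.52% in both, beside 16.6% and 17.1%. Myc was at 148, 102 and 174 CPM in WT Prol and at 101, 41.9 and 44.2 CPM in WT D2, and Larp1 at 621, 428 and 602 CPM and at 381, 140 and 161 CPM. Mxd4, which opposes Myc at E-boxes, was at 32.4, 30.6 and 15 CPM and at 186, 120 and 144 CPM. Each of the 3 separated its WT groups, whereas 14 of the 21 did not, among them Max, Mtor and Mdm2. Of the 21, 4 lay lower at D2 without overlap, near the 20.4% of all tested genes that did so. Another 3 lay higher without overlap, for which the share of all tested genes is not given here. Between KO and WT no gene of these lists was called in any state.

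The annotated start gave no clear division of the values. With the copies added, the median log2 fold change of D2 against Prol was -0.52 in WT and -0.47 in KO over the 13 genes with a pyrimidine run at the annotated start, and -0.45 and -0.41 over the 51 without it. Their ranges overlapped, from -0.67 to -0.15 in WT with the run and from -1.11 to 0.79 without it. Rps2 and Rpl4 lack the run at the annotated base and lay at the low end, whereas Rps21, which has the run, was at -0.15 in WT and -0.06 in KO.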

How the data were processed

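Expression was measured by strand-specific, poly(A)-enriched single-end RNA-seq in 18 libraries of 6 groups. Per the study's methods, the authors ran cutadapt, NextGenMap against the mouse transcriptome (GRCm38) and RSEM, so that reads with several placements were divided between genes, and TMM scaling (edgeR) followed. The deposited values are CPM on that scale, with no other unit used. The totals behind them were recovered as 26437823 to 41619016 expected counts.

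The deposited CPM were taken as log2, with the count of 0.5 that the authors had added and no further pseudocount. Genes over 5 expected counts in all 3 libraries of a group (17766) were tested with limma 3.58.1 under R 4.3.3 (1 linear model of all 6 groups, eBayes trend, no block, Benjamini-Hochberg adjusted p under 0.05). Standard errors are limma's. Alternatives were other scalings, pseudocounts and filters, the study's criteria (1.5-fold, unadjusted p under 0.05, at least 10 CPM in 1 library), voom, each library left out, and the replicate number as a block. Copies are listed genes with 50% or more of a gene's 50-base coding words. The fits were tested on simulated data.

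The study blocked on sequencing lane, which the labels do not give. Deviations of same-numbered libraries correlated over 0.1 in all 3 pairs for KO D2/Prol, KO D2/D0, both D0/Prol and all KO/WT comparisons, so the numbers were taken as pairs there. In WT D2/Prol and WT D2/D0, replicate 3 was at 0.04 and 0.0085, so by this rule over all genes they were not taken as pairs, although over the 84 genes alone the correlations were 0.53 to 0.85 and 0.68 to 0.92.

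By rule, the genes named are the 3 extremes of a comparison in each direction, those meeting the study's criteria, paralogs, stalk genes, genes with further roles, extremes per length, and up to 4 genes for each other list. Npm1 and any other gene named beyond these were chosen after their values were seen. Some genes are not reported here by name. The members and lists were chosen with earlier results of these data known.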

Additional observations from a re-analysis of the deposited data

How the results depend on the processing

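The medians over the ribosomal protein genes moved by less than the spread between replicates (0.33 on the log2 scale) under every alternative run. That limit exceeds the D0/Prol and KO/WT medians, which could change sign with 1 library left out. Without a block they then ran from -0.20 to 0.33 in WT D0/Prol and from -0.34 to 0.19 in KO/WT D0. The D2/Prol medians stayed negative, at -0.63 to -0.34 (WT) and -0.68 to -0.25 (KO). The share was checked only as a mean over all 18 libraries, which leaving 1 out could hardly move by 2.58 percentage points. Its differences between groups were not checked so. The counts of genes called moved, and the cause was not tested. Blocking on the replicate number took the genes called lower to 59 (WT D2/Prol), 54 (KO D2/Prol), 57 (WT D2/D0) and 62 (KO D2/D0), beside 23.2%, 23.8%, 20.2% and 22.3% of all tested genes. The WT libraries were not taken as pairs by the check over all genes, but between same-numbered WT libraries the D2 share differed from Prol by -2.19, -1.25 and -1.23 percentage points, and 73 of the 84 genes were lower in all 3, beside 31.3% of all tested genes. Blocked fits with the criteria of the study gave 23, 24, 24 and 31 (beside 14.5%, 15.4%, 12.1% and 13.9% of all tested genes), with library totals 35, 37, 41 and 58, with median-of-ratios scaling 49, 47, 55 and 62, with totals that leave out ribosomal protein genes 37, 37, 48 and 58, and with the copies added (chosen after seeing the data) 62, 56, 63 and 65. Voom with a random replicate block gave 43, 37, 43 and 51. Outside the criteria of the study, lower calls under these blocked fits made up between 16.1% and 24% of all tested genes. The block changed no other call from 0, except that with the criteria of the study it gave 2 genes in WT D0/Prol, 1 in KO D0/Prol, 5 in KO/WT D0 and 2 in KO/WT D2. For these counts the share of all tested genes is not given here.

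Without a block, the criteria of the study gave 17 genes in WT D2/Prol (beside 12.7% of all tested genes), 16 in WT D2/D0 (beside 10.2%) and 1 in KO/WT D0. For KO/WT D0 that share is not given here. Library totals gave 4 in WT D2/Prol, 8 in KO D2/Prol and 4 in WT D2/D0 (beside 11%, 12.6% and 8.72%), and totals without ribosomal protein genes 4 and 8 in the first pair. For the totals without ribosomal protein genes the share of all tested genes is not given here. Fits of only the groups compared, with fewer samples, gave 6 in WT D2/Prol, 0 in WT D2/D0 and 3 in KO D2/D0 (beside 12.2%, 4.64% and 7.27%). When 1 library was left out, with and without the block, counts ran from 2 to 63 (WT D2/Prol), 4 to 58 (KO D2/Prol), 2 to 66 (WT D2/D0) and 5 to 66 (KO D2/D0). The share of all tested genes called in those fits, which also changes with the libraries used, is not given here.

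Of 4078 alternative values for 80 named pairs of gene and D2/Prol comparison, 61 changed sign. Library totals turned Rpl5 in WT to 0.018, Rps21 to 0.0101 in WT and 0.07 in KO (0.0481 with totals that leave out ribosomal protein genes), and Rps28 in WT to 0.14 (0.11). Added copies turned Rps12 in WT to -0.25. With 1 library left out, WT values ran from -0.78 to 0.17 (Rpl12), -0.26 to 0.40 (Rpl13a), -0.31 to 2.24 (Rpl39l), -0.55 to 0.10 (Rpl41), -0.63 to 0.37 (Rpl5), -1.50 to 1.39 (Rps12), -0.64 to 0.34 (Rps13), -0.38 to 0.12 (Rps21), -0.72 to 0.47 (Rps27rt) and -0.14 to 0.0621 (Rps28). KO values ran from -0.31 to 0.52 (Rpl13a), -0.94 to 0.11 (Rpl22l1), -0.70 to 0.0447 (Rpl35), -0.60 to 0.17 (Rpl41), -0.64 to 0.0685 (Rps19), -0.42 to 0.31 (Rps21), -0.31 to 0.67 (Rps27rt) and -0.0925 to 0.32 (Rps28). None of these genes was called in D2/Prol without a block. In simulated libraries of WT D2/Prol (16387 genes), each gene had a replicate effect that was the same in all 6 groups. Of genes changed 2-fold, the fit without a block then recovered 0% and the blocked fit 99%. Without such an effect (16500 genes) both recovered 97%. Of genes changed 1.5-fold, nearer to the family's median, they recovered 0% and 43% with the effect and 34% and 33% without it. An effect shared in full favours the block by design. In the real libraries, replicate 3 of WT D2/Prol correlated at only 0.04 over all genes. There the fit without a block called 14% of all tested genes lower and 16.6% higher. The simulation therefore cannot tell which fit suits these libraries.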
